A study of Mesocricetus auratus with 6 samples.

Results

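The genes described here are secreted antagonists of Wnt signalling (Dkk1, Dkk2, Dkk3, Sfrp1, Sfrp2, Sfrp4 and Wif1) and transcription factors of the Tcf/Lef family (Lef1, Tcf7 and Tcf7l2), measured in uterine tissue of golden hamsters (Mesocricetus auratus) that were pregnant, on day 5. They were chosen by name, as every probe set whose platform annotation gave exactly 1 gene symbol equal to a member. A probe set is a group of short probes that together read 1 transcript. This gave 16 of the 22626 tested probe sets, for 9 of the 10 genes. Sfrp1 and Tcf7l2 had 4 probe sets each, Dkk3 had 2 and the other members had 1, while no probe set carried the symbol Tcf7 alone, so Tcf7 is not analysed here. Total RNA of the implantation site, the piece of uterus where a blastocyst has attached (3 arrays), was compared with RNA of the interimplantation site, the uterus between such pieces (3 arrays), on an Affymetrix mouse array. All animals were untreated and pregnant, their strain and age are not given in the sources used here, and the RNA sets came from 3 different animals. The labels do not say whether arrays of the same number in the 2 groups shared an animal. The implantation site also contains the embryo unless it was removed, which the labels do not say.

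Wnt proteins are secreted signals that bind Frizzled receptors and the co-receptors Lrp5 and Lrp6, after which β-catenin escapes degradation and enters the nucleus. There it binds Tcf/Lef proteins, which sit on Wnt target genes and repress them without β-catenin. Sfrp proteins and Wif1 bind Wnt ligands outside the cell, whereas Dkk proteins act on the Lrp co-receptors. In the rodent uterus the pathway takes part in gland formation, in the preparation of the wall for the blastocyst and in the transformation of the stroma into decidua.

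Values are log2 signals after RMA, a procedure that gives all arrays nearly the same distribution, so each difference is relative to what most probe sets did. The array medians ran from 4.55 to 4.57. The probes were designed on mouse sequence, and mismatches with hamster RNA can lower a signal and shrink its difference, so levels of different genes were not set against each other. Where a probe set is called brighter or dimmer than another of its gene or than the Bacillus controls, this describes its signal and not the amount of transcript. The 18 hybridisation controls, bacterial and phage transcripts added to every sample, averaged 6.64 ± 0.17 (SD, n = 3) on the implantation arrays and 7.03 ± 0.27 (SD, n = 3) on the interimplantation arrays. Stroma markers gave signal in the tissue labelled uterus, with 12 of 22 probe sets brighter than the brightest of 27 Bacillus controls (5.79), to which no hamster RNA corresponds. Of the trophoblast marker probe sets 1 of 20 exceeded that control.

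Lef1, Dkk1, 1 of the 4 Tcf7l2 probe sets and 1 of the 2 Dkk3 probe sets were higher on every implantation array than on any interimplantation array, by 1.19-fold to 1.48-fold on average. None of the 16 member probe sets passed the test at an adjusted p under 0.05 (limma with Benjamini-Hochberg adjustment over the 22626 probe sets), and this test called 2.31% of all probe sets, 1.26% as higher and 1.05% as lower. With the replicate number as a block, which would fit if same-numbered arrays shared an animal, 1 member passed (Lef1, adjusted p = 0.0400). At an unadjusted p under 0.05 there were 4 higher and 1 lower member probe sets, and over all probe sets 14.0% passed that limit (5.63% higher and 8.35% lower). The groups did not overlap in 5 of the 16 (4 higher and 1 lower), against 19.3% of all probe sets (7.62% higher and 11.7% lower). The median difference of the 16 was 0.04 on the log2 scale, beside −0.02 over all probe sets, and 10 of the 16 differences were positive. Only 4 of the 16 were brighter than the brightest Bacillus control, and Lef1, Dkk1 and both Dkk3 probe sets were not among them. With 3 arrays a group, a missed threshold does not show an equal level. In bulk tissue, fewer cells of a type and less RNA per cell cannot be told apart.

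**Figure D1:**
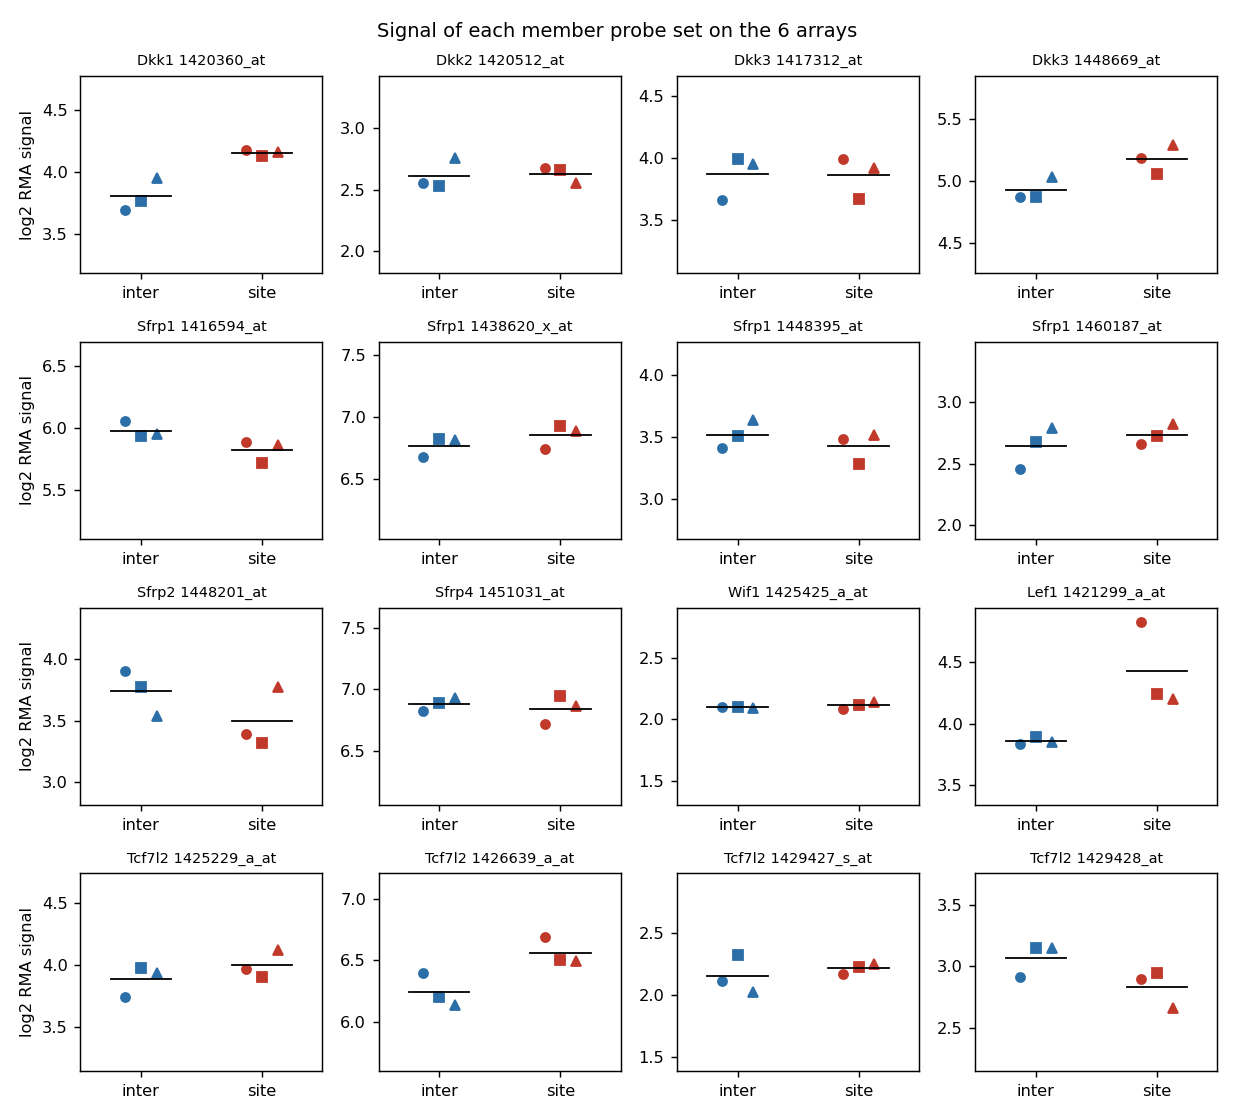
Log2 RMA signal of each of the 16 member probe sets (vertical axis, each panel in its own window of the same height) on the 3 interimplantation arrays (blue) and the 3 implantation arrays (red). Circles, squares and triangles are replicates 1, 2 and 3, black lines are group means, and Lef1 shows the widest gap between the groups, with implantation array 1 at 4.83.

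Among the transcription factors, Lef1, a Tcf/Lef factor of lymphocytes and of embryonic and epithelial tissues, showed the largest difference of the members. Its probe set (1421299_a_at) read 4.83, 4.24 and 4.20 on implantation arrays 1, 2 and 3, and 3.83, 3.89 and 3.85 on interimplantation arrays 1, 2 and 3. All implantation arrays lay above all interimplantation arrays, with a gap of 0.31 between the nearest, and implantation array 1 stood above the other two. The means were 4.42 ± 0.35 and 3.86 ± 0.03 (SD, n = 3), so the spread at the site was much wider than between the sites. The difference was 0.56 (SE 0.14, 95% interval 0.26 to 0.87, limma adjusted p = 0.0628), a 1.48-fold higher signal, and 0.769% of all probe sets had a more positive difference. Without implantation array 1 the difference was 0.36 (limma adjusted p = 0.138).

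Lef1 is also a gene of T cells, so the T cell markers were read beside it. None of their 20 probe sets, for 12 of 14 listed genes, was called in either direction, and 0 had an unadjusted p under 0.05 in limma. Their mean log2 signal ran from 4.49 to 4.55 on the implantation arrays and from 4.50 to 4.53 on the interimplantation arrays. Of the 20, 1 was under the median of the Bacillus controls (2.68) and 3 were brighter than the brightest of them (5.79). The Lef1 probe set was itself above that median and dimmer than the brightest control. Implantation array 1, where Lef1 was highest, had a T cell mean of 4.50, between the other arrays of its group. The part of T cells in the Lef1 difference was not tested. The hybridisation controls differed between the groups in the opposite direction to Lef1, and their part in its difference was not tested.

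Tcf7l2, the Tcf factor that is widely expressed in epithelia and other tissues, gave probe sets that did not move together. Probe set 1426639_a_at read 6.69, 6.50 and 6.50 at the site and 6.40, 6.20 and 6.14 between the sites. The arrays did not overlap, though only 0.10 separated the nearest, and the difference was 0.32 (SE 0.10, 95% interval 0.11 to 0.53, limma adjusted p = 0.137). This was the only Tcf7l2 probe set brighter than the brightest Bacillus control. Without interimplantation array 1, the highest of its group, the difference was 0.39 and passed the threshold (adjusted p = 0.0433). Without any other single array it was 0.25 to 0.35 and did not pass (adjusted p from 0.218 to 0.440).

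The other three Tcf7l2 probe sets were dimmer. Probe set 1425229_a_at read 3.97, 3.90 and 4.12 at the site and 3.74, 3.98 and 3.94 between the sites, with overlapping groups and a difference of 0.11 (95% interval −0.10 to 0.32). Without implantation array 3 or interimplantation array 1 that difference was 0.05 or 0.04. Probe set 1429428_at pointed the other way, at 2.90, 2.95 and 2.66 against 2.92, 3.15 and 3.15. This dim probe set lay close to the median of the Bacillus controls (2.68), with implantation array 3 under it. Its difference was −0.23 (SE 0.10, 95% interval −0.46 to −0.01, limma unadjusted p = 0.0413, adjusted p = 0.329), with interimplantation array 1 inside the range of the site. It was −0.15 without implantation array 3 (unadjusted p = 0.198) and −0.43 with the hybridisation controls as a covariate (adjusted p = 0.166). Probe set 1429427_s_at, annotated to the same source sequence as 1429428_at, was at 0.06 and lay under the median of the Bacillus controls, at 2.17 to 2.25 against 2.03 to 2.33. Tcf7l2 is spliced in several forms, and the table does not say which form each probe set reads.

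Tcf7l1, the family member best known as a repressor of Wnt targets, had the smallest p in the list of nuclear partners of Tcf/Lef. It read 5.01, 4.94 and 4.77 at the site and 5.30, 5.38 and 5.05 between the sites by probe set 1450117_at. The groups did not overlap and the difference was −0.34 (SE 0.10, limma adjusted p = 0.142), opposite in sign to Lef1 and to the brightest Tcf7l2 probe set. Its other probe set, which was brighter, had overlapping groups and a difference of −0.16 (adjusted p = 0.593). With scaling to the hybridisation controls both Tcf7l1 differences became positive, at 0.06 and 0.24, where the median of all probe sets was 0.38.

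Of the Dkk antagonists, Dkk1, which blocks Wnt signals at Lrp5 and Lrp6, was higher at the implantation site on every array. Its probe set (1420360_at) read 4.18, 4.13 and 4.16 at the site and 3.69, 3.77 and 3.95 between the sites. The 3 site values lay within a narrow range, the nearest interimplantation array was 0.18 below them, and the spread came from between the sites (SD 0.02 and 0.13, n = 3 each). The difference was 0.35 (SE 0.09, 95% interval 0.16 to 0.55, limma adjusted p = 0.0667), a 1.28-fold higher signal. It passed the threshold without interimplantation array 3, the highest of its group (0.43, adjusted p = 0.0491), and with quantile normalization repeated (0.38, adjusted p = 0.0476). Without any other single array it was 0.30 to 0.37 and did not pass (adjusted p from 0.118 to 0.241).

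Dkk3, a divergent Dkk protein that is not a typical Wnt antagonist, gave a split answer. Its brighter probe set (1448669_at) read 5.19, 5.06 and 5.30 at the site and 4.87, 4.87 and 5.03 between the sites, so the groups were separated by 0.03 only. The difference was 0.26 (SE 0.09, 95% interval 0.06 to 0.46, limma unadjusted p = 0.0161, adjusted p = 0.209). Its dimmer probe set (1417312_at) read 4.0, 3.67 and 3.92 against 3.66, 3.99 and 3.95, which overlap fully, with a difference of −0.01 (95% interval −0.25 to 0.24). Dkk2, a Dkk protein that can activate or inhibit Wnt signals depending on its partners, read 2.68, 2.66 and 2.55 at the site and 2.55, 2.53 and 2.76 between the sites. The mean over the 6 arrays is under the median of the Bacillus controls, though interimplantation array 3 is above it, and the difference was 0.02 (95% interval −0.18 to 0.21), so at this signal a dim transcript cannot be told from none.

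**Figure D2:**
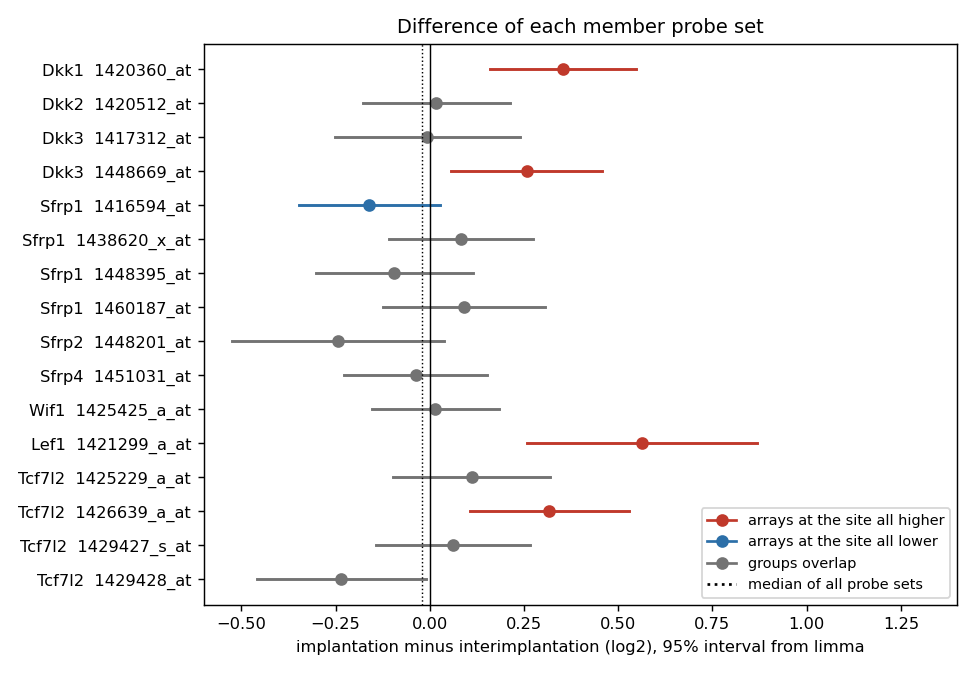
Difference of each member probe set, implantation minus interimplantation on the log2 scale (horizontal axis), with the 95% interval of the limma fit as a bar. Colour shows whether the arrays of the groups overlap, and the dotted line is the median of all probe sets (−0.02); Lef1 and Dkk1 lie furthest to the right, at 0.56 and 0.35.

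The Sfrp antagonists, which carry a Frizzled-like domain that binds Wnt ligands, showed no member past the threshold and mixed signs. Sfrp1 had 4 probe sets with differences from −0.16 to 0.09, 2 positive and 2 negative. The 2 bright ones pointed in opposite directions. Probe set 1416594_at read 5.88, 5.71 and 5.86 at the site and 6.06, 5.93 and 5.95 between the sites, without overlap but with a gap of 0.05, and a difference of −0.16 (95% interval −0.35 to 0.03, limma adjusted p = 0.446). Probe set 1438620_x_at, whose suffix marks probes that can also match other transcripts, read 6.74, 6.92 and 6.89 against 6.67, 6.82 and 6.81, a difference of 0.08 (95% interval −0.11 to 0.27). The dimmer probe sets 1448395_at and 1460187_at were at −0.09 and 0.09, with overlapping groups. The group means of 1460187_at, 2.73 at the site and 2.64 between the sites, lay close to the Bacillus median (2.68). As ratios of site over interimplantation signal, the 95% intervals of the bright probe sets ran from 0.786 to 1.02 and from 0.927 to 1.21.

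Sfrp4 read 6.72, 6.95 and 6.86 at the site and 6.83, 6.89 and 6.93 between the sites. The groups overlapped fully, and the difference of −0.04 had a 95% interval of −0.23 to 0.15. Sfrp2 read 3.39, 3.31 and 3.78 at the site and 3.90, 3.78 and 3.53 between the sites. Its difference was −0.24 (SE 0.13, 95% interval −0.52 to 0.04, limma adjusted p = 0.441), and implantation array 3 lay among the interimplantation arrays. Single arrays decided its size, which was −0.38 without implantation array 3, −0.15 without implantation array 2 and −0.16 without interimplantation array 1, and it was −0.08 with the hybridisation controls as a covariate. Wif1, the Wnt inhibitory factor, read 2.08, 2.11 and 2.14 against 2.10, 2.10 and 2.09, under the Bacillus median, and its difference of 0.01 (95% interval −0.15 to 0.18) says nothing of its transcript.

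Marker levels of other uterine tissues moved between the same arrays. The mean log2 signal of 15 smooth muscle marker probe sets was 4.88 to 5.03 at the site and 5.28 to 5.45 between the sites, with 3 called lower and 15 of 15 above the Bacillus median. The 22 epithelium marker probe sets averaged 4.89 to 4.93 and 5.05 to 5.14, with 3 called lower and 20 of 22 above that median. The averages of the 22 stroma marker probe sets overlapped, at 5.93 to 6.0 and 5.96 to 6.09, with 2 called lower. None of these lists had a probe set called higher, and 1.05% of all probe sets were called lower. Probe set by probe set, 4 of the 22 for stroma were lower without overlap and 3 higher. For smooth muscle 8 of 15 were lower and 0 higher, and for epithelium 9 of 22 lower and 1 higher. Over all probe sets 11.7% were lower without overlap and 7.62% higher. The 16 endothelium marker probe sets averaged 4.91 to 4.98 and 4.99 to 5.05, and the 20 trophoblast marker probe sets 3.82 to 3.85 and 3.86 to 3.93. These averages were lower at the site without overlap, though by a narrow margin, and none of either list was called. Taken singly, 0 of the 16 and 1 of the 20 had groups that did not overlap, against 19.3% of all probe sets. That trophoblast probe set was higher at the site. All 16 and 17 of the 20 were above the Bacillus median. The part of these tissues in the differences of Dkk1, Lef1, Tcf7l2 and Sfrp1 was not tested.

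When each array was scaled to its hybridisation controls, every member difference was raised alike, and the median over all probe sets became 0.38 in place of −0.02. Lef1 was then at 0.96 (adjusted p = 0.00103), Dkk1 at 0.75 (adjusted p = 0.0232) and Tcf7l2 by 1426639_a_at at 0.71 (adjusted p = 0.0351), and these 3 passed. Relative to the median of all probe sets they were at 0.58, 0.37 and 0.34, the same as without the scaling. With the scaling, 3.32% of all probe sets were called higher and 0.0575% lower, against 1.26% and 1.05% on the deposited values. In a model that took each array's mean control signal as a covariate, Lef1 was at 0.59 and Dkk1 at 0.35, and neither passed (adjusted p = 0.225 and 0.259). The direction of Lef1, Dkk1, the brightest Tcf7l2 probe set and the brighter Dkk3 probe set was positive in every alternative in which they were tested, while that of Sfrp1 by 1416594_at turned from −0.16 to 0.24 with the scaling.

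**Figure D3:**
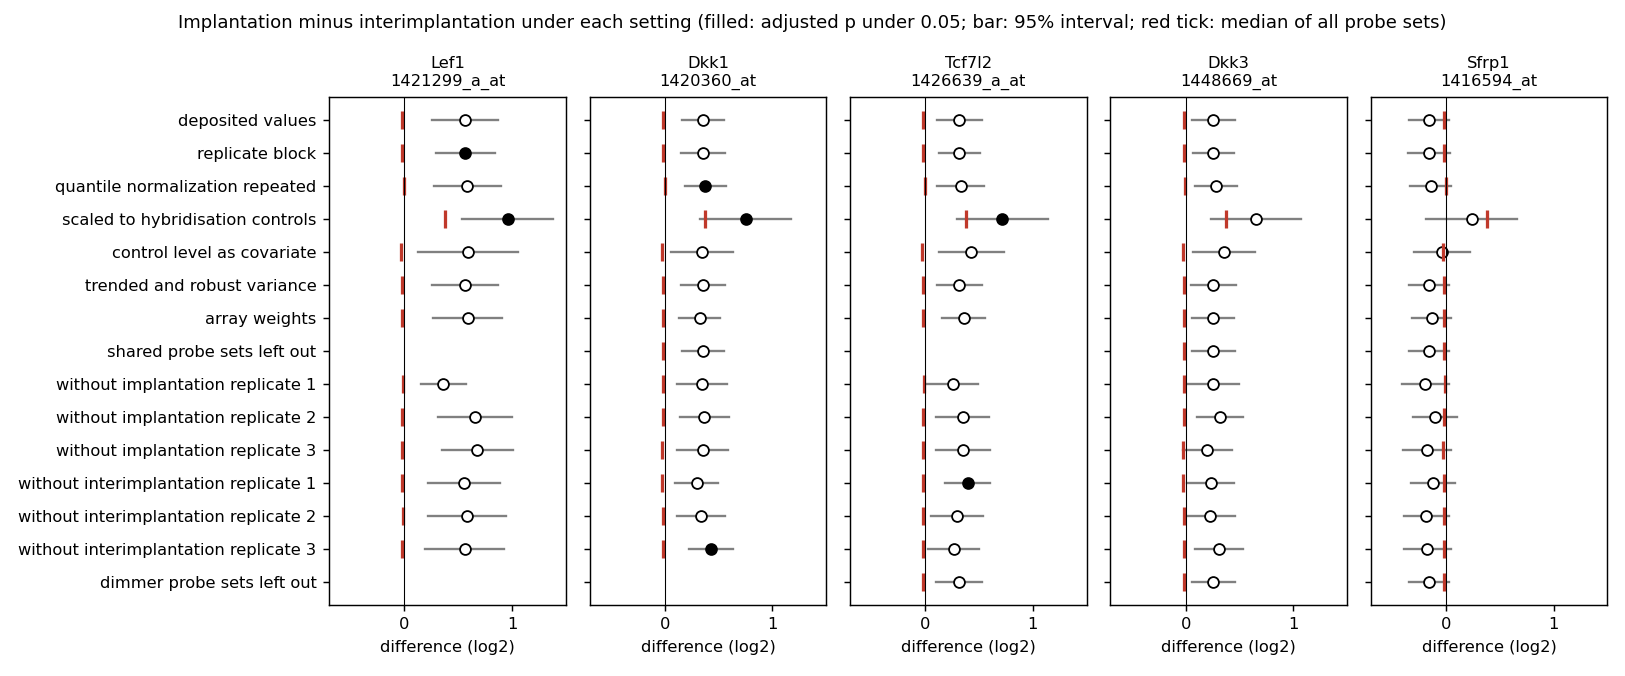
Difference on the log2 scale (horizontal axes) of the 5 member probe sets whose groups do not overlap, on the deposited values and under each alternative (rows), with 95% intervals as bars. Filled points passed an adjusted p of 0.05, a missing point means that the alternative leaves the probe set out, and the red tick is the median of all probe sets; scaling to the hybridisation controls moves points and ticks together, to 0.96 for Lef1 and 0.38 for the median.

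The rest of the pathway was read through 6 lists, with 178 probe sets of 107 genes besides the members, of which 2 were higher and 2 lower in the same test, where 2.31% of all probe sets were called. Their median difference was −0.02, beside −0.02 over all probe sets. Wnt4, a ligand of the uterine stroma, rose by 0.63 (limma adjusted p = 0.00633) and Wnt7b, a ligand of the epithelium, fell by 0.50 (adjusted p = 0.0112), the only calls among 30 probe sets of ligands and their secretion. Wnt7b lost its call with scaling to the controls (−0.11 where the median of all probe sets was 0.38, adjusted p = 0.644) and without implantation array 1 (adjusted p = 0.0768), and both lost theirs with the control covariate, at differences of 0.50 for Wnt4 (SE 0.14, adjusted p = 0.138) and −0.57 for Wnt7b (SE 0.13, adjusted p = 0.0677).

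Of 26 receptor probe sets, 1 rose and 0 fell. It belonged to Fzd2, a Frizzled receptor, and was probe set 1418533_s_at, which the filter on shared probe sets described below left out. This probe set read 5.68, 5.81 and 5.71 at the site and 5.30, 5.31 and 5.41 between the sites. The groups were clearly separate, and the difference was 0.39 (SE 0.08, limma adjusted p = 0.0292). The other Fzd2 probe sets were at 0.31 and 0.17 and did not pass. The call was lost without any implantation array and without interimplantation array 2 or 3 (adjusted p from 0.0532 to 0.113), and in the model with the hybridisation controls as a covariate (0.36, SE 0.12, adjusted p = 0.198).

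None of 21 probe sets of other Wnt inhibitors, among them Dkk4, Frzb, Sostdc1 and Nkd2, was called or had an unadjusted p under 0.05 in limma, and their differences ran from −0.15 to 0.16. The smallest p belonged to Dkkl1, a Dkk-like protein best known from the testis, at −0.15 (adjusted p = 0.469). Of 39 probe sets of cytoplasmic transducers 0 were called in limma and 5 had an unadjusted p under 0.05, where 14.0% of all probe sets did. The smallest p was that of Fbxw11, a subunit of the ubiquitin ligase that marks β-catenin for degradation (−0.40, adjusted p = 0.0639, and called in 5 of 14 alternatives). With scaling to the controls it was at −0.0014, where the median of all probe sets was 0.38 (limma adjusted p = 0.995). The other Fbxw11 probe sets were at −0.25 and −0.14, with overlapping groups (limma adjusted p = 0.393 and 0.571). Of 26 probe sets of nuclear partners 0 were called in limma and 2 had an unadjusted p under 0.05. Neither of these lists thus exceeded the share among all probe sets. In the same limma fit 6 of 30 ligand and 6 of 26 receptor probe sets had an unadjusted p under 0.05. Over the 6 lists together 27 of 178 did.

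Among 37 probe sets of Wnt target genes 0 rose and 1 fell. Their differences were positive in 16 and negative in 21, from −0.89 to 0.37. At an unadjusted p under 0.05 in limma there were 8 of the 37, 3 higher and 5 lower, where 14.0% of all probe sets passed. The probe set that fell was one of Jun, an AP-1 subunit with many inputs besides Wnt, at −0.89 (limma adjusted p = 0.00469). The other Jun probe set was at −0.14 and did not pass, and the call was lost with scaling to the controls (−0.49 where the median of all probe sets was 0.38, adjusted p = 0.119) and with the control covariate (−0.85, SE 0.20, adjusted p = 0.0828). Axin2, a feedback inhibitor that is among the most direct readouts of β-catenin and was chosen here after its values were seen, was lower at the site by both of its probe sets without passing the test. The brighter one read 5.30, 5.21 and 5.24 at the site and 5.50, 5.46 and 5.40 between the sites, a difference of −0.20 (SE 0.08, adjusted p = 0.274). The dimmer one was at −0.25 (SE 0.10, adjusted p = 0.258), and its groups were next to each other, at 3.55 for the nearest array of each. With scaling to the controls both turned positive (0.20 and 0.14), below the median of all probe sets.

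**Figure D4:**
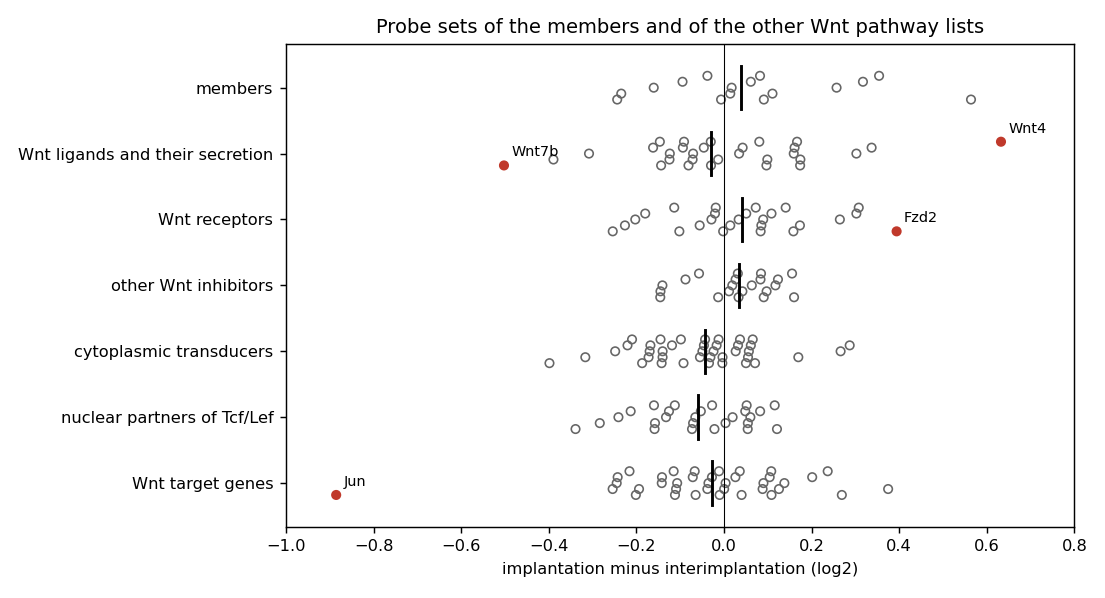
Difference on the log2 scale (horizontal axis) of every probe set of the members and of the 6 other Wnt pathway lists (rows), with black bars at the list medians. Red points passed an adjusted p of 0.05 and are named, and the members (top row) include none.

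The genes whose arrays followed Lef1 most closely were Fscn1, which bundles actin, Znrd2 and Nolc1, a nucleolar protein. The measure was the largest gap over the 6 arrays after centring each probe set on its own mean, among 10302 probe sets of other genes brighter than the median probe set, and it was 0.13, 0.14 and 0.15. Fscn1 read 6.89, 6.42 and 6.51 at the site and 6.07, 6.01 and 6.01 between the sites, with implantation array 1 highest as for Lef1. For Dkk1 the nearest were Mapk8, the kinase JNK1, with a largest gap of 0.02, Foxred1 at 0.04 and Serbp1, an RNA-binding protein, at 0.05. Mapk8 read 4.80, 4.78 and 4.81 at the site and 4.33, 4.39 and 4.56 between the sites, with interimplantation array 3 nearest to the site as for Dkk1. With this number of arrays such likeness is a description only.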

How the data were processed

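The authors deposited 1 log2 value per probe set and array, made with Partek 6.6 and RMA per the submitters' processing notes. The log base and the order of steps are not stated, and base 2 was taken because RMA usually gives it and the range of the values fits it. The table held 22690 rows, and 64 control probe sets were left out. No filter on level was used. Groups and replicate numbers came from the sample titles. Gene names came from the platform annotation, and all 10 member symbols are also symbols of the hamster RefSeq annotation (BCM_Maur_2.0). The comparison used R 4.3.3 and limma 3.58.1 (lmFit and eBayes, group as the only term, two-sided), with Benjamini-Hochberg adjustment over 22626 probe sets. The calculation was tested on simulated data. Members and gene lists were chosen with earlier results of these data known. Named were all member probe sets, and from each pathway list the called probe sets or, with none, the one with the smallest p, and beside this rule Axin2 and other probe sets of the genes so named, and 4 inhibitors with no value of their own, chosen after their values were seen. Also named were, for the 2 members with the smallest p, the 3 genes nearest in pattern. No label says whether replicate numbers pair the animals. They were therefore not used in the fit, and a fit with them is among the alternatives, as are other normalizations, variance models, filters and leaving out each array. The human array of the same RNA was not analysed here.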

Additional observations from a re-analysis of the deposited data

How the results depend on the processing

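The 16 member probe sets gave 207 values under the alternatives. Of these, 180 kept their sign and their side of the threshold, 7 newly passed it and 20 changed sign without passing. No member was called with the control covariate, a trended and robust variance or array weights. None was called without the dimmer probe sets, but only 5 member probe sets were left there, without Lef1 and Dkk1. None was called among the 10 left without the shared probe sets, a filter that took out Lef1 and the brightest Tcf7l2 probe set. Shared here means only that the name carries the letter s, x, a, f or r before its ending. For these Lef1 and Tcf7l2 probe sets the letter is a, which does not show that their signal came from other genes. These filters therefore could not test the members they left out. The count of called members was 1 with the replicate block (Lef1, adjusted p = 0.0400), 1 with repeated quantile normalization (Dkk1) and 3 with scaling to the controls. It ran from 0 to 1 when each array was left out. Over all probe sets, scaling to the controls gave 752 higher and 13 lower calls. The block changed no other member call and gave 294 higher and 240 lower calls over all probe sets, against 284 and 238. Deviations of same-numbered arrays from their group means correlated at −0.09, 0.07 and −0.03, and not every array correlated best with its own number. With 3 arrays a group this cannot decide whether the numbers are pairs. They were left out of the main fit because no label gives the pairing. The median member difference was 0.44 with scaling to the controls and −0.02 without shared probe sets, where 10 member probe sets were left. Among the pathway lists, the higher calls numbered 8 with that scaling, 1 with the control covariate and 1 without shared probe sets, and ran from 1 to 2 when arrays were left out. The lower calls numbered 0 with the scaling, 1 with the covariate and 4 with array weights, and ran from 1 (without implantation array 1) to 4 (without interimplantation array 1) when arrays were left out. With scaling to the controls, signs turned for Dkk3 by its dimmer probe set (0.39), Sfrp1 by 1416594_at (0.24) and 1448395_at (0.30), Sfrp2 (0.15), Sfrp4 (0.36), Tcf7l2 by 1429428_at (0.16), Dkkl1 (0.25), Tcf7l1 (0.058 and 0.24) and Axin2 (0.14 and 0.20). This shift is the controls' own difference, added to every probe set. The other changes of sign were of differences near 0, and their cause was not tested. They were Dkk2 with array weights (−0.016), the dimmer Dkk3 probe set with repeated quantile normalization (0.014), and Sfrp1 by 1438620_x_at (−0.022) and Tcf7l2 by 1429427_s_at (−0.073) with the covariate. Leaving out arrays gave ranges across 0 for Dkk2 (−0.025 to 0.089), the dimmer Dkk3 probe set (−0.11 to 0.089), Sfrp1 by 1460187_at (−0.00022 to 0.16), Sfrp4 (−0.090 to 0.024), Wif1 (−0.0013 to 0.031) and Tcf7l2 by 1429427_s_at (−0.0032 to 0.15). The number of arrays limits every one of these values. A signal under the median of the Bacillus controls limits Dkk2, Wif1 and 1 Tcf7l2 probe set. A signal close to that median limits Sfrp1 by 1460187_at and Tcf7l2 by 1429428_at.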
